A study of Mus musculus with 8 samples.

Results

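Mouse bone marrow-derived macrophages treated with LPS, IL-4 and IL-13 were compared with macrophages treated with IFN-gamma and LPS, in 2 arrays per treatment, 4 of the 8 arrays of the series. The other 4 arrays held macrophages given IL-4 and IL-13 without LPS and untreated macrophages, 2 arrays each, and are used as reference levels. Every probe set whose platform annotation gives exactly 1 gene symbol entered the comparison, with the brightest probe set standing for a gene that had several, which left 19938 genes from 35556 probe sets. All cells were cultured from bone marrow, and RNA was taken after 6 h of treatment. The labels give no strain, sex, age, cytokine dose or number of animals, and do not state whether replicate arrays came from different animals or cultures; p-values therefore reflect array-to-array spread alone, which may be technical. Both treatments contained LPS. They differed in IFN-gamma on one side and in IL-4 and IL-13 on the other, and since no sample received LPS alone, the parts played by these cytokines cannot be told apart within the comparison. In bulk RNA of this kind, fewer cells of a type and less RNA per cell also cannot be told apart.

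LPS is a component of the outer membrane of Gram-negative bacteria that macrophages sense through Toll-like receptor 4, which switches on NF-kB and, through type I interferon, a set of antiviral genes. IFN-gamma acts through its own receptor, and together with LPS gives the classically activated macrophage that makes nitric oxide, IL-12 and T cell-attracting chemokines. IL-4 and IL-13 act through the IL-4 receptor alpha chain and STAT6 and give the alternatively activated macrophage, known for arginase, mannose receptor and the chemokines CCL17 and CCL24. The study asked which activation state each mixture gives, and the combination of LPS with IL-4 and IL-13 brings both kinds of signal to the same culture.

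The values are the deposited log2 signals, in which a difference of 1 is a 2-fold difference. No detection calls were used, so where a group lies below the array medians a signal above background is not shown, and a log2 difference against it is a difference of readings, not an exact fold of RNA. Array medians of the 4 arrays compared lay between 6.12 and 6.18, and values in the 8 arrays ran from 1.46 to 13.71. Between replicates, Pearson's r over genes (not independent observations) was 0.9941 for LPS/IL-4/IL-13 and 0.9939 for IFN-gamma/LPS. Differences below are log2 fold changes of LPS/IL-4/IL-13 minus IFN-gamma/LPS, with the standard error from a limma model of all 8 arrays (n = 2 arrays per group). A gene is called higher or lower where its Benjamini-Hochberg adjusted p over the 19938 genes was under 0.05. As a check of the labelled cell type, 2 defining macrophage genes were bright in all 4 arrays. Adgre1, which encodes the F4/80 surface antigen, read 12.63 and 12.57 in the LPS/IL-4/IL-13 arrays, against 12.52 and 12.59 in the IFN-gamma/LPS arrays. Csf1r, the receptor for the macrophage growth factor M-CSF, read 12.12 and 12.11 in the LPS/IL-4/IL-13 arrays, against 11.83 and 11.88 in the IFN-gamma/LPS arrays.

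In macrophages given LPS/IL-4/IL-13, 2407 genes (12.1% of those tested) were higher and 1519 (7.62%) were lower than in macrophages given IFN-gamma/LPS. The median log2 fold change over all genes was 0.00. Most of these differences were modest, with a median log2 fold change of 0.52 among the genes called higher and -0.60 among those called lower. Differences of at least 2-fold were about equally frequent in both directions, 334 genes higher (1.68%) and 327 lower (1.64%), and differences of at least 4-fold comprised 61 higher and 48 lower genes. The 2 arrays of one treatment lay wholly above or below those of the other in 9752 genes (48.9%), so such separation alone is common with 2 arrays per group. Called genes were mostly bright. The 10th of all genes with the highest mean signal held 561 of the higher and 357 of the lower genes, and the dimmest 10th held 8 and 17. The shares of all genes given beside the list counts below are therefore not matched for brightness. The part of brightness in the list counts was not tested. The count of higher genes was 1558 without IFN-gamma/LPS replicate 1, and 1488 when the model was fitted to these 4 arrays alone. All 334 and all 327 genes that differed at least 2-fold were also called, in the same direction, in each fit that left out 1 array and in the fit of 4 arrays.

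**Figure D1:**
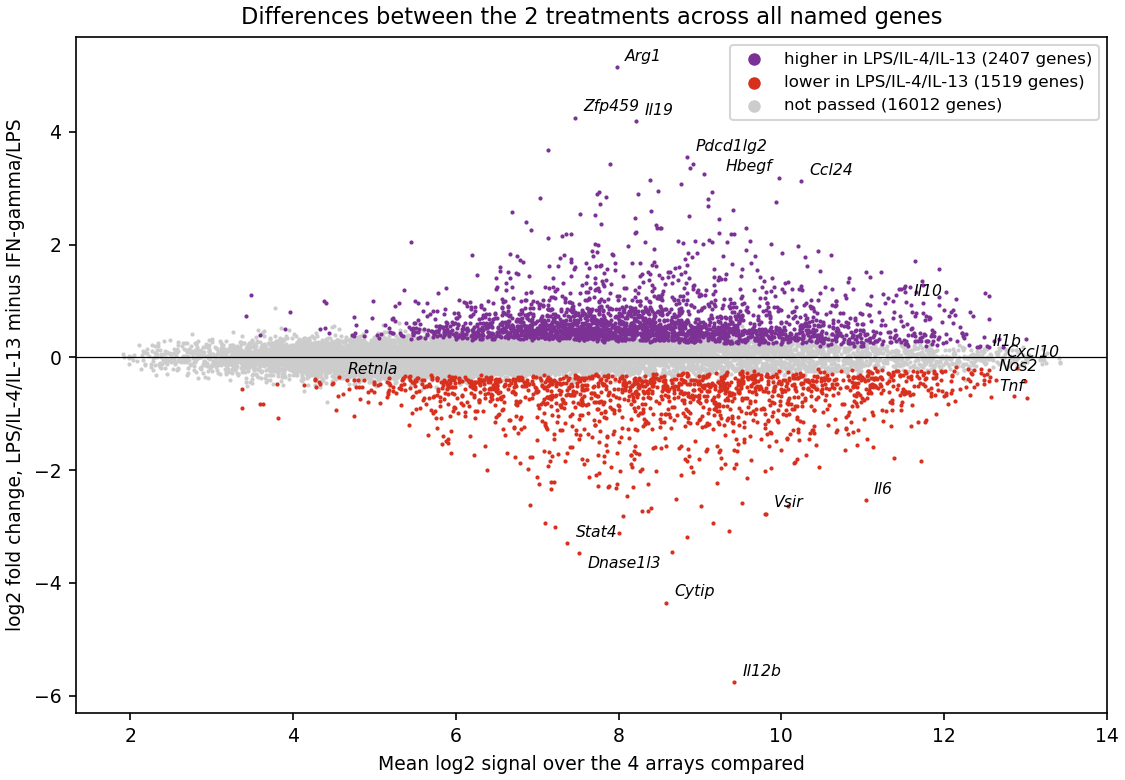
Log2 fold change of LPS/IL-4/IL-13 minus IFN-gamma/LPS (y axis) against the mean log2 signal of the 4 arrays compared (x axis), with 1 point per gene. Purple points are the 2407 genes called higher, red points the 1519 called lower and grey points the genes that did not pass. Arg1 lies at 5.14 and Il12b at -5.76, the ends of the range.

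Arginase and IL-12 p40 marked the ends of the comparison. Arg1, the enzyme that splits arginine into ornithine and urea, had log2 signals of 10.72 and 10.38 in the LPS/IL-4/IL-13 arrays, against 5.37 and 5.45 in the IFN-gamma/LPS arrays. The difference was 5.14 ± 0.12 (limma adjusted p = 4.93e-10), and the IFN-gamma/LPS arrays lay below the array medians and near the untreated level of 5 and 5.14. Il12b, a subunit that IL-12 shares with IL-23, had 6.49 and 6.59 in the LPS/IL-4/IL-13 arrays, against 12.29 and 12.31 in the IFN-gamma/LPS arrays. It was 54.2-fold lower (-5.76 ± 0.10, limma adjusted p = 2.57e-11), and the LPS/IL-4/IL-13 arrays stood 1.22 above untreated cells on the log2 scale, against 6.98 for IFN-gamma/LPS.

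After Arg1, the largest increases included Zfp459, Il19, Plekhf1, Pdcd1lg2 and Tmem26. Zfp459, a zinc finger protein gene, read 9.72 and 9.47 in the LPS/IL-4/IL-13 arrays, against 5.46 and 5.23 in the IFN-gamma/LPS arrays (4.25 ± 0.14), and the other 2 groups stayed low (5.59 and 5.78 with IL-4/IL-13 and 5.04 and 5.3 in untreated cells). Il19, a cytokine of the IL-10 family, showed the same pattern, with 10.37 and 10.24 in the LPS/IL-4/IL-13 arrays, against 6.17 and 6.07 in the IFN-gamma/LPS arrays (4.19 ± 0.13) and 5.64 and 5.66 with IL-4/IL-13 and 5.2 and 5.61 in untreated cells. Both genes were thus high in the combined treatment and in no other group. Pdcd1lg2, which encodes the T cell-inhibiting ligand PD-L2, read 10.63 and 10.61 in the LPS/IL-4/IL-13 arrays, against 7.05 and 7.08 in the IFN-gamma/LPS arrays (3.56 ± 0.11), and here the IL-4/IL-13 arrays were nearly as high (10.12 and 10). Plekhf1, an endosomal and lysosomal protein gene, read 9.1 and 8.83 in the LPS/IL-4/IL-13 arrays, against 5.42 and 5.16 in the IFN-gamma/LPS arrays (3.68 ± 0.14). Tmem26, a transmembrane protein gene, read 9.57 and 9.66 in the LPS/IL-4/IL-13 arrays, against 6.31 and 6.06 in the IFN-gamma/LPS arrays (3.43 ± 0.11), below the 10.13 and 10.22 of IL-4/IL-13 alone.

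Flt1, a receptor for vascular endothelial growth factor, read 10.73 and 10.62 in the LPS/IL-4/IL-13 arrays, against 7.44 and 7.4 in the IFN-gamma/LPS arrays (3.26 ± 0.12). Hbegf, a ligand of the EGF receptor, read 11.66 and 11.48 in the LPS/IL-4/IL-13 arrays, against 8.39 and 8.38 in the IFN-gamma/LPS arrays (3.19 ± 0.10), and the eotaxin gene Ccl24, whose product attracts eosinophils, read 11.9 and 11.7 in the LPS/IL-4/IL-13 arrays, against 8.64 and 8.71 in the IFN-gamma/LPS arrays (3.13 ± 0.11). All 3 were highest in the combined treatment. F2r, the thrombin receptor PAR1, was also high there alone, at 9.51 and 8.86 in the LPS/IL-4/IL-13 arrays, against 6.11 and 6.47 in the IFN-gamma/LPS arrays (2.90 ± 0.20). The transcription factor gene Myc stood at 3.15 ± 0.11 and the growth arrest gene Gadd45a at 2.95 ± 0.15. Kmo, an enzyme of kynurenine breakdown, stood at 2.93 ± 0.11, and the signalling adaptor genes Bcar3 and Sh2b2 at 2.90 ± 0.10 and 2.82 ± 0.08.

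A second kind of gene stood low with IFN-gamma/LPS and near or above its untreated level with LPS/IL-4/IL-13. Il6ra, the receptor that binds IL-6, read 10.76 and 10.46 in the LPS/IL-4/IL-13 arrays, against 7.63 and 7.73 in the IFN-gamma/LPS arrays (2.93 ± 0.10), and untreated cells had 10.6 and 10.52, close to the combined treatment. The Rab exchange factor gene Rab3il1 read 10.41 and 10.2 in the LPS/IL-4/IL-13 arrays, against 7.18 and 7.27 in the IFN-gamma/LPS arrays (3.08 ± 0.09), again beside an untreated level of 10.45 and 10.38. Hip1, a clathrin adaptor gene, the caspase gene Casp6 and the cytokine receptor gene Il21r, at 3.42 ± 0.09, 3.37 ± 0.10 and 2.85 ± 0.13, also had IFN-gamma/LPS arrays below untreated ones. Among the 20 genes, LPS/IL-4/IL-13 arrays were above all 6 others in 16, and IFN-gamma/LPS arrays were below all 6 others in 11.

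The 20 largest decreases came mostly from genes that were highest with IFN-gamma/LPS, whose arrays lay above all 6 others in 19 of them. Stat4, the transcription factor through which IL-12 signals, read 5.67 and 5.77 in the LPS/IL-4/IL-13 arrays, against 8.9 and 9.14 in the IFN-gamma/LPS arrays (-3.30 ± 0.13), so the IL-12 subunit Il12b and a downstream factor were both lower. Dnase1l3, a secreted DNase gene, read 5.75 and 5.81 in the LPS/IL-4/IL-13 arrays, against 9.16 and 9.35 in the IFN-gamma/LPS arrays (-3.48 ± 0.11). Fst, the activin-binding protein follistatin, read 7.18 and 7.32 in the LPS/IL-4/IL-13 arrays, against 10.36 and 10.5 in the IFN-gamma/LPS arrays (-3.18 ± 0.10), and the endothelial adhesion molecule gene Sele read 6.43 and 6.47 in the LPS/IL-4/IL-13 arrays, against 9.61 and 9.53 in the IFN-gamma/LPS arrays (-3.12 ± 0.13). In these 4 genes the combined treatment stayed far below IFN-gamma/LPS. Prrg4 stood at -3.45 ± 0.11, Bcl2l14, a gene of the BCL2 family, at -3.02 ± 0.13, the O-glycosylation enzyme gene Galnt3 at -2.94 ± 0.11 and Gramd3 at -2.93 ± 0.09. For Galnt3 and Gramd3 the LPS/IL-4/IL-13 arrays (5.63 and 5.62, and 7.72 and 7.66) were close to untreated cells (5.48 and 5.58, and 7.67 and 7.58).

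The TNF family ligand genes Tnfsf4 (OX40 ligand) and Tnfsf15 (TL1A) stood at -2.72 ± 0.15 and -2.64 ± 0.12, and the G protein-coupled receptor genes Gpr18, Gpr33 and P2ry13, the last an ADP receptor, at -3.09 ± 0.11, -2.82 ± 0.14 and -2.78 ± 0.09. Il6, the pyrogenic cytokine, read 10.02 and 9.52 in the LPS/IL-4/IL-13 arrays, against 12.3 and 12.3 in the IFN-gamma/LPS arrays (5.78-fold lower, -2.53 ± 0.14). Even so, Il6 in the combined treatment stood far above the 3.41 and 3.4 of untreated cells. Clic5 stood at -2.67 ± 0.10, the nuclear receptor gene Nr4a3 at -2.63 ± 0.14 and St3gal5, the GM3 ganglioside synthase gene, at -2.64 ± 0.10.

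Vsir and Cytip went a different way, with LPS/IL-4/IL-13 arrays below all 6 others. Vsir, which encodes the inhibitory checkpoint protein VISTA, read 8.37 and 8.46 in the LPS/IL-4/IL-13 arrays, against 11.16 and 11.21 in the IFN-gamma/LPS arrays (-2.77 ± 0.07), and untreated cells had 12.05 and 12. Cytip, a regulator of leukocyte adhesion, read 6.73 and 6.09 in the LPS/IL-4/IL-13 arrays, against 10.72 and 10.8 in the IFN-gamma/LPS arrays (-4.35 ± 0.17), beside 8.56 and 8.25 with IL-4/IL-13 and 9.1 and 8.98 in untreated cells. Cytip was thus above untreated cells with IFN-gamma/LPS and below them with LPS/IL-4/IL-13. The 20 largest increases had limma adjusted p of at most 5.82e-07 and the 20 largest decreases of at most 1.4e-07.

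**Figure D2:**
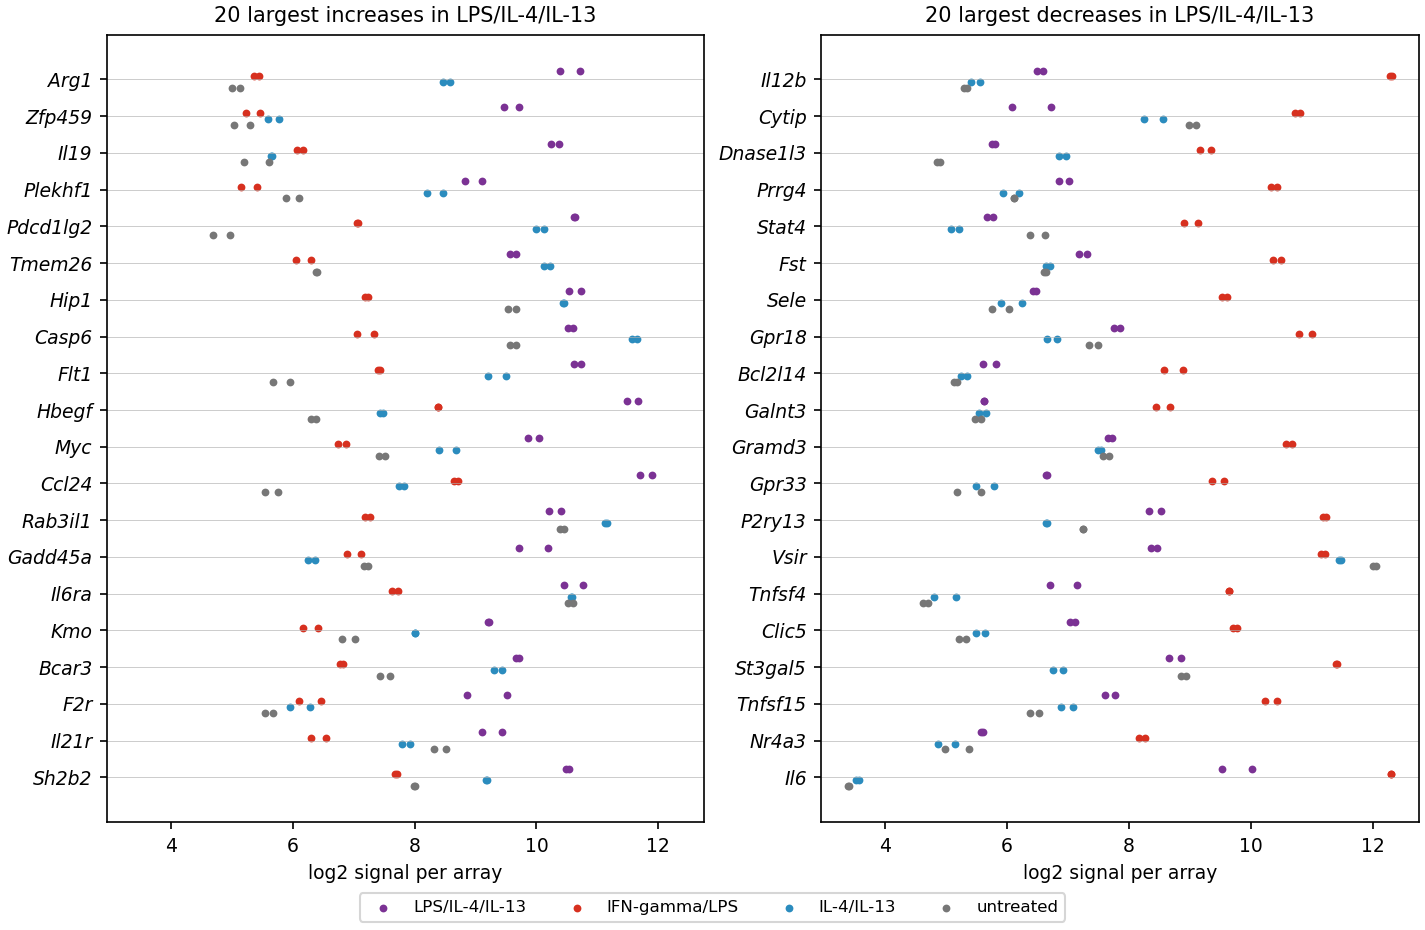
Log2 signal (x axis) of the 20 genes with the largest increase (left) and the 20 with the largest decrease (right) in LPS/IL-4/IL-13 relative to IFN-gamma/LPS, with 1 point per array and a colour per treatment. On the right, red points lie beyond all others in 19 genes, the exception being Vsir, where untreated cells are highest.

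Promoter sequences of the 4 top genes in each direction that have an entry in the RefSeq table (GRCm38.p6) are shown because IL-4 and IL-13 act through STAT6 sites and interferons in part through IRF sites, short patterns that can lie near a gene's start. Each runs from 250 bases before to 50 bases after the annotated start, 5′ to 3′ on the gene's strand. They are Zfp459 (chr13:67421369-67421668, minus strand), Il19 (chr1:130940066-130940365, minus strand), Plekhf1 (chr7:38227945-38228244, minus strand) and Pdcd1lg2 (chr19:29410669-29410968, plus strand), which were higher, and Il12b (chr11:44399813-44400112, plus strand), Cytip (chr2:58160073-58160372, minus strand), Prrg4 (chr2:104849801-104850100, minus strand) and Stat4 (chr1:51986898-51987197, plus strand, the first of 2 starts listed), which were lower. Capitals mark matches on either strand to 3 patterns: TTCNNNGAA, the same TTC and GAA held 4 bases apart (the wide-spaced pattern), and GAAA followed after 2 bases by another GAAA (the GAAA repeat).
Zfp459: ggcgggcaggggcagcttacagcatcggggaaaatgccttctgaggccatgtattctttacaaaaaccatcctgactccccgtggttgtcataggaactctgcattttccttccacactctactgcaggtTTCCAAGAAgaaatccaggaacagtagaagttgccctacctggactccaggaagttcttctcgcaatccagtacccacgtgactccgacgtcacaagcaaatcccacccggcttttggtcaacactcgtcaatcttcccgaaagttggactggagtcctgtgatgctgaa
Il19: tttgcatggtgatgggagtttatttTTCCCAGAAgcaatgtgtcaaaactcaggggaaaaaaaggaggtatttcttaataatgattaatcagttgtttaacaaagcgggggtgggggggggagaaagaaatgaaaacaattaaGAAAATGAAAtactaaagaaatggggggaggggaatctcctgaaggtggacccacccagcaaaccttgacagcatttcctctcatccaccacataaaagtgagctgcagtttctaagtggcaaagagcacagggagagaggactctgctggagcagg
Plekhf1: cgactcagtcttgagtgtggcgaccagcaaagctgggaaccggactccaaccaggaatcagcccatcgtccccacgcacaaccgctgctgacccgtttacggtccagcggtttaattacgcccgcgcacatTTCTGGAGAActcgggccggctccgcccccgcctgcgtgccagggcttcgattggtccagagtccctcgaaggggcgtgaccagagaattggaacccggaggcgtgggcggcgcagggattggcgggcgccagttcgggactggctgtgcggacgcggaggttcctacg
Pdcd1lg2: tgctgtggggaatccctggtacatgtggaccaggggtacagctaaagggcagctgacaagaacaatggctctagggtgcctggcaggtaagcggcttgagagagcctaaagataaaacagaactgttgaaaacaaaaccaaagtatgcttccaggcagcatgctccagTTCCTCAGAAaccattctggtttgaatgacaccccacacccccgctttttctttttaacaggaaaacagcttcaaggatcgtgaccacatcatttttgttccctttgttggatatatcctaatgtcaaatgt
Il12b: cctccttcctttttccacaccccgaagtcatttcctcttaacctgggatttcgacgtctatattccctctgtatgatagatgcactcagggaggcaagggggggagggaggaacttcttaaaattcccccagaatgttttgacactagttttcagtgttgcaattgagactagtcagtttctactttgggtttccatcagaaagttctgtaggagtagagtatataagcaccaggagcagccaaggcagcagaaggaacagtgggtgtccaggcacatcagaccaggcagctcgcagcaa
Cytip: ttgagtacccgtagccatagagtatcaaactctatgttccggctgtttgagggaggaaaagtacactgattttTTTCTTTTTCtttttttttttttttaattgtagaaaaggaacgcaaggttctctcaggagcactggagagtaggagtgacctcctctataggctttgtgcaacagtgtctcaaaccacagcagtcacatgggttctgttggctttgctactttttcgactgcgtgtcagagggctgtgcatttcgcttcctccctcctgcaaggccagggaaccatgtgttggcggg
Prrg4: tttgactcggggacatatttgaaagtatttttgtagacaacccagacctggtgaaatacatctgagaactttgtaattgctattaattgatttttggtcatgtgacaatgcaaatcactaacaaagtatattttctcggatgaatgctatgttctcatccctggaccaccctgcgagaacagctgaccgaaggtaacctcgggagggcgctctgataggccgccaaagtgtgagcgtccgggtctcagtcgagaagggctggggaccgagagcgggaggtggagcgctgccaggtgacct
Stat4: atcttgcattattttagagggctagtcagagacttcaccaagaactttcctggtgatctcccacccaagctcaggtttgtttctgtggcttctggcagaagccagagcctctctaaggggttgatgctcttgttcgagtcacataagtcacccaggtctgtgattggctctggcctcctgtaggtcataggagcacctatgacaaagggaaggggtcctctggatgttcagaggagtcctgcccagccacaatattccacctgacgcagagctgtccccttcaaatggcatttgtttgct

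Plekhf1 and Pdcd1lg2 each held a match to the wide-spaced pattern, beginning at -119 and -82 from the start, and Zfp459 and Il19 each held a TTCNNNGAA match, at -120 and -225. Il19 also held the GAAA repeat at -107 and Cytip held it, on the other strand, at -177. The windows shown for Il12b, Prrg4 and Stat4 held no match to these letters. Over all 15614 genes tested that have a promoter in the table, counting the first start listed for each gene, 7.83% held TTCNNNGAA, 6.23% held the wide-spaced pattern and 3.32% held the GAAA repeat. The wide-spaced share was 5.86% among genes called higher and 5.84% among genes called lower, and the TTCNNNGAA share 7.01% and 9.01%. The GAAA repeat was found in 2.0% of the 1997 higher genes and 6.01% of the 1199 lower genes with a promoter. Among genes that differed at least 2-fold, it was found in 3.03% of 264 higher and 5.86% of 239 lower genes. Matches of the patterns can share letters, and these shares are descriptions of short letter patterns near the start, with no test.

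Genes that IFN-gamma induces were mostly lower in the combined treatment, and some of them, such as Gbp4, were still far above untreated cells. Of 22 measured interferon-gamma-inducible GTPases, chemokines and regulators, 16 were lower (72.7%, against 7.62% of all genes) and 1 was higher, the Fc receptor gene Fcgr1 (0.19 ± 0.06), whose call was lost in each fit without an array except 1 (list median -0.61, against 0.00 over all genes). Ido1, which degrades tryptophan, read 6.04 and 5.65 in the LPS/IL-4/IL-13 arrays, against 7.66 and 7.79 in the IFN-gamma/LPS arrays (-1.88 ± 0.16). The guanylate-binding protein gene Gbp4, of a family that attacks the vacuoles of intracellular microbes, read 10.84 and 10.76 in the LPS/IL-4/IL-13 arrays, against 12.62 and 12.65 in the IFN-gamma/LPS arrays (-1.84 ± 0.15), and its untreated level was 5.04 and 5.66. So the combined treatment raised Gbp4 by 5.45 over untreated cells on the log2 scale with no IFN-gamma added, and IFN-gamma/LPS by 7.29. Irf1, a transcription factor gene that interferons induce, read 11.28 and 11.11 in the LPS/IL-4/IL-13 arrays, against 12.31 and 12.36 in the IFN-gamma/LPS arrays (-1.14 ± 0.08). Gbp8 stood at -1.60 ± 0.12, Gbp9 at -1.13 ± 0.13, and the MHC class II regulator gene Ciita at -0.82 ± 0.11. Ciita was not raised by IFN-gamma/LPS here, at 7.08 and 7.22 beside 7.27 and 7.14 in untreated cells. The combined treatment was below that level, at 6.23 and 6.43. The T cell-attracting chemokine gene Cxcl9 read 12.48 and 12.55 in the LPS/IL-4/IL-13 arrays, against 13.25 and 13.15 in the IFN-gamma/LPS arrays (-0.69 ± 0.15, limma adjusted p = 0.00639). The related chemokine gene Cxcl10 did not pass (-0.11 ± 0.09, limma adjusted p = 0.544), at 13.35 and 13.4 in the LPS/IL-4/IL-13 arrays, against 13.5 and 13.46 in the IFN-gamma/LPS arrays, which lies close to the 13.71 maximum of all values. Whether array saturation narrowed this difference was not tested. Socs1, an inhibitor of cytokine receptor signalling, also did not pass (-0.18 ± 0.12).

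Of 32 measured antiviral genes that type I interferon induces, 3 were lower (9.38%, against 7.62% of all genes), 0 were higher (against 12.1% of all genes) and 29 did not pass, with log2 fold changes of those 29 between -0.26 and 0.17 and standard errors between 0.06 and 0.18 (median -0.05). The most negative value was Oas3 at -0.37 ± 0.11. Mx1, an inhibitor of influenza virus, read 11.69 and 11.72 in the LPS/IL-4/IL-13 arrays, against 11.82 and 11.82 in the IFN-gamma/LPS arrays, and Ifit2, an RNA-binding antiviral protein gene, read 12.9 and 12.83 in the LPS/IL-4/IL-13 arrays, against 12.86 and 12.95 in the IFN-gamma/LPS arrays. In untreated cells these 2 genes read 6.59 and 6.52 for Mx1 and 8.29 and 8.12 for Ifit2, so both LPS treatments raised them by similar amounts. The 3 lower genes were Oas3, an antiviral oligoadenylate synthase, the RNA sensor gene Ifih1 (-0.30 ± 0.07) and Parp14 (-0.24 ± 0.06). Their calls were fragile. Oas3 did not pass in any fit that left out an array of the 2 groups (limma adjusted p from 0.0503 to 0.155), Ifih1 did not pass without IFN-gamma/LPS replicate 2 (limma adjusted p = 0.063), and Parp14 did not pass without IFN-gamma/LPS replicate 1 (limma adjusted p = 0.0664) or 2 (limma adjusted p = 0.126). Ifnb1, the type I interferon beta, was lower, at 5.15 and 5.28 in the LPS/IL-4/IL-13 arrays, against 6 and 5.95 in the IFN-gamma/LPS arrays (-0.76 ± 0.12). These readings all lay below the array medians, so a signal above background is not shown in either group.

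Receptors and transcription factors of these pathways split. Of 21 measured receptor, JAK, STAT and IRF genes, 6 were higher (28.6%, against 12.1% of all genes) and 7 lower (33.3%, against 7.62%). The list median was -0.01. Most receptor subunit genes that passed were higher. Ifnar1 of the type I interferon receptor read 11.14 and 11.18 in the LPS/IL-4/IL-13 arrays, against 9.86 and 9.95 in the IFN-gamma/LPS arrays (1.26 ± 0.07), Ifngr2 of the IFN-gamma receptor stood at 0.81 ± 0.05, Ifngr1 at 0.39 ± 0.07, Ifnar2 at 0.35 ± 0.06 and Il4ra at 0.81 ± 0.06, whereas Il13ra1, the subunit that pairs with IL-4 receptor alpha, was lower (-0.37 ± 0.10) with a call that not every alternative fit kept. Among the STAT factors, Stat4 (-3.30 ± 0.13), Stat5b (-0.56 ± 0.10) and Stat3 (-0.41 ± 0.07) were lower. Stat6 was also called lower (-0.24 ± 0.07, limma adjusted p = 0.0435), but lost the call in each fit without an array except 1 (limma adjusted p from 0.0688 to 0.155). Irf4, which takes part in alternative activation, did not pass (0.11 ± 0.15), at 6.26 and 5.96 with LPS/IL-4/IL-13 and 6.11 and 5.89 with IFN-gamma/LPS, although IL-4/IL-13 arrays reached 9.65 and 9.59.

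Genes of the STAT6 pathway downstream of IL-4 and IL-13 were mostly higher with LPS/IL-4/IL-13. Of the 39 on the list that were measured, 28 were higher (71.8%, against 12.1% of all genes), 20 of them at least 2-fold. A further 2 were lower (5.13%, against 7.62%, median 1.06). Beside Arg1, Pdcd1lg2, Flt1, Ccl24 and Kmo, the transcription factor gene Egr2 read 10.36 and 10.54 in the LPS/IL-4/IL-13 arrays, against 7.7 and 7.82 in the IFN-gamma/LPS arrays (2.69 ± 0.09), and the Ras activator gene Rasgrp1 read 10.4 and 10.26 in the LPS/IL-4/IL-13 arrays, against 8.06 and 8.2 in the IFN-gamma/LPS arrays (2.20 ± 0.12). Ccl17, a chemokine that attracts Th2 cells, read 8.79 and 8.68 in the LPS/IL-4/IL-13 arrays, against 6.7 and 6.8 in the IFN-gamma/LPS arrays (1.99 ± 0.17). Mrc1, the mannose receptor, read 12.31 and 12.09 in the LPS/IL-4/IL-13 arrays, against 10.9 and 11 in the IFN-gamma/LPS arrays (1.25 ± 0.08), and the beta-glucan receptor gene Clec7a stood at 1.22 ± 0.07. Not every gene of the list followed. Retnla, a hallmark of alternative activation that encodes RELM-alpha, read 4.39 and 4.6 in the LPS/IL-4/IL-13 arrays, against 4.99 and 4.29 in the IFN-gamma/LPS arrays (did not pass, -0.15 ± 0.19), while the IL-4/IL-13 arrays had 10.15 and 10.33. Both LPS treatments were therefore at the untreated Retnla level of 4.67 and 4.7. Chil3, a chitinase-like protein gene, was higher (0.97 ± 0.17) at a low level, 6.17 and 5.86 with LPS/IL-4/IL-13 and 5.16 and 4.94 with IFN-gamma/LPS. The lower genes were Ppargc1b, a coactivator of mitochondrial genes (6.35 and 6.19 in the LPS/IL-4/IL-13 arrays, against 7.63 and 7.84 in the IFN-gamma/LPS arrays, -1.47 ± 0.11), and Ccl22, another Th2-attracting chemokine (9.12 and 9.17 in the LPS/IL-4/IL-13 arrays, against 10.46 and 10.54 in the IFN-gamma/LPS arrays, -1.36 ± 0.10). Not every listed gene was raised by IL-4/IL-13 alone: Ccl22 read 5.69 and 5.8 there, close to the untreated 5.67 and 5.61. The list was chosen with earlier results of these arrays known, so its count is not independent evidence of its direction.

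NF-kB-driven cytokines and chemokines divided by gene. Of 33 measured, 14 were lower (42.4%, against 7.62% of all genes), 6 were higher (18.2%, against 12.1%) and 13 did not pass (median -0.17). Besides Il12b and Il6, Il12a, the IL-12 p35 subunit, was lower and read 7.31 and 7.48 in the LPS/IL-4/IL-13 arrays, against 9.13 and 9.09 in the IFN-gamma/LPS arrays (-1.72 ± 0.12), and Lif, a cytokine of the IL-6 family, stood at -0.53 ± 0.11. Il18 stood at -1.49 ± 0.11 and the adhesion molecule genes Vcam1 and Icam1 at -1.44 ± 0.11 and -0.77 ± 0.07. Tnf read 12.15 and 12.3 in the LPS/IL-4/IL-13 arrays, against 12.94 and 12.93 in the IFN-gamma/LPS arrays, a 1.64-fold difference (-0.71 ± 0.08, limma adjusted p = 6.75e-05). Il23a, the subunit that pairs with IL-12 p40 to form IL-23, did not pass (0.14 ± 0.13). The IL-1 genes were not lower. Il1a, an alarmin, was higher (0.76 ± 0.16), and Il1b did not pass (0.10 ± 0.11), at 12.54 and 12.54 in the LPS/IL-4/IL-13 arrays, against 12.41 and 12.48 in the IFN-gamma/LPS arrays. Neutrophil- and monocyte-attracting chemokines were higher in part: Cxcl3 read 8.2 and 7.74 in the LPS/IL-4/IL-13 arrays, against 5.49 and 5.31 in the IFN-gamma/LPS arrays (2.57 ± 0.15), Cxcl1 stood at 0.80 ± 0.11, Ccl7 at 1.09 ± 0.08, Ccl2 at 1.04 ± 0.13 and Ccl4 at 0.84 ± 0.10, whereas Cxcl2 did not pass (0.18 ± 0.15). Ptgs2, the inducible cyclooxygenase, did not pass either (-0.10 ± 0.09).

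**Figure D3:**
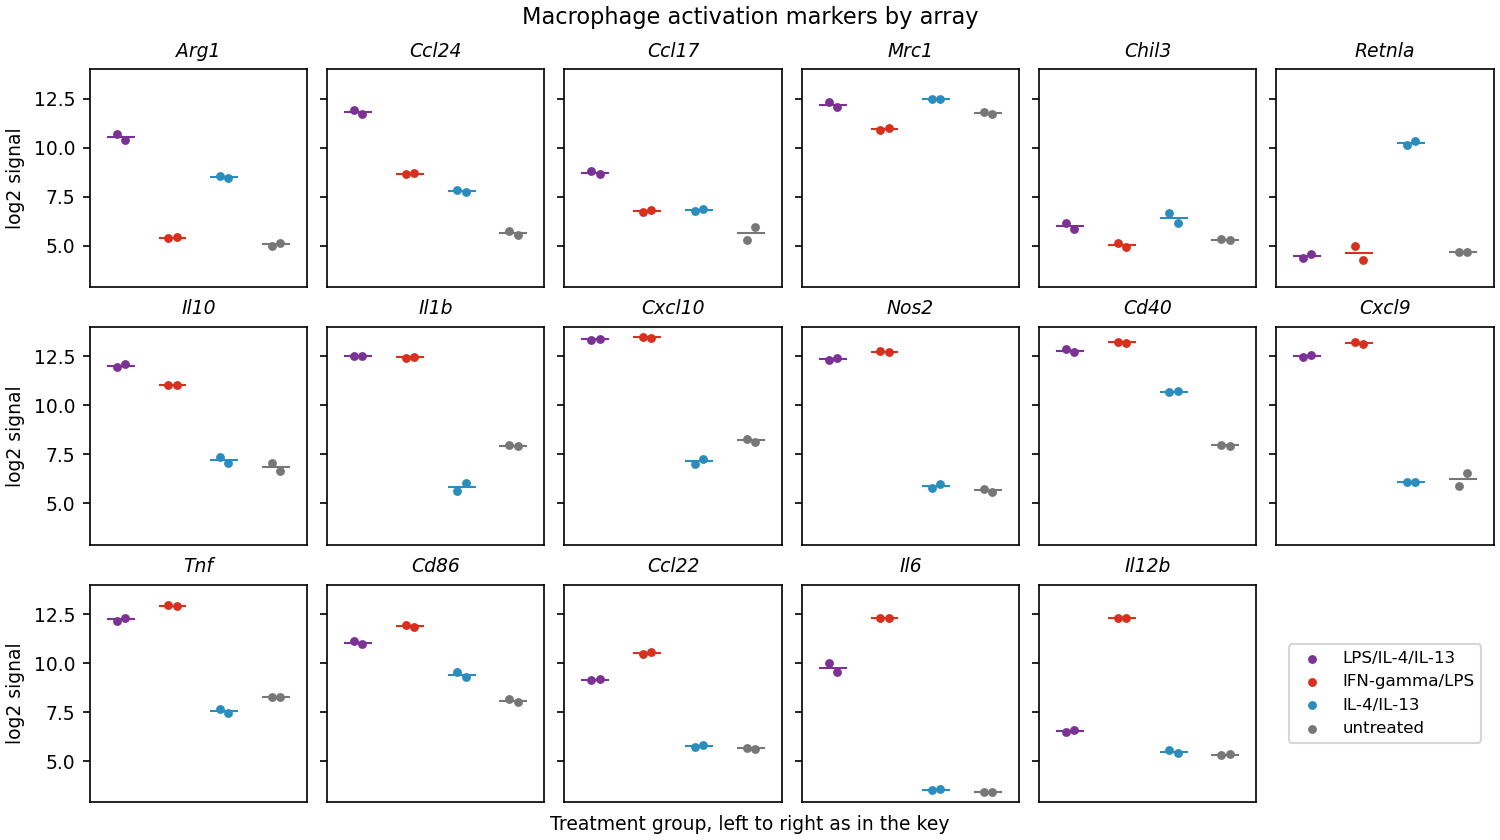
Log2 signal (y axis) of 17 macrophage activation markers in each array, with 1 panel per gene and the groups from left to right as in the key; points are arrays and short lines are group means. Arg1, Ccl24 and Ccl17 are highest with LPS/IL-4/IL-13, Il12b and Il6 are highest with IFN-gamma/LPS, and Retnla is high with IL-4/IL-13 alone.

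Nitric oxide synthase and arginase, which compete for arginine, were both high in the combined treatment. Nos2 read 12.34 and 12.44 in the LPS/IL-4/IL-13 arrays, against 12.76 and 12.73 in the IFN-gamma/LPS arrays (-0.36 ± 0.10, limma adjusted p = 0.0256), beside 5.73 and 5.6 in untreated cells. This call did not hold without LPS/IL-4/IL-13 replicate 1, IFN-gamma/LPS replicate 1 or IFN-gamma/LPS replicate 2 (limma adjusted p = 0.107, 0.136 and 0.0859), nor without a variance trend (limma adjusted p = 0.0558). In the arginine, nitric oxide and polyamine list, 6 of 11 genes were higher (54.5%, against 12.1% of all genes). The 1 lower gene was Nos2 (9.09%, against 7.62%, median 0.50). Arg2, the mitochondrial arginase, read 10.58 and 10.45 in the LPS/IL-4/IL-13 arrays, against 8.83 and 8.4 in the IFN-gamma/LPS arrays (1.90 ± 0.16). Slc7a2, an arginine transporter, stood at 1.07 ± 0.08 and Srm, the spermidine synthase, at 1.08 ± 0.09, while Odc1, which makes putrescine from ornithine, did not pass (0.08 ± 0.09).

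Of 22 feedback and anti-inflammatory genes, 9 were higher (40.9%, against 12.1% of all genes) and 2 lower (9.09%, against 7.62%, median 0.22). Il10, the main anti-inflammatory cytokine of macrophages, read 11.94 and 12.1 in the LPS/IL-4/IL-13 arrays, against 11.02 and 11.05 in the IFN-gamma/LPS arrays (0.99 ± 0.14, limma adjusted p = 0.000234). Dusp4, a MAP kinase phosphatase, read 8.91 and 9.02 in the LPS/IL-4/IL-13 arrays, against 6.63 and 6.57 in the IFN-gamma/LPS arrays (2.37 ± 0.11). Cd200r1, an inhibitory receptor, read 9.24 and 8.97 in the LPS/IL-4/IL-13 arrays, against 7.17 and 7.1 in the IFN-gamma/LPS arrays (1.97 ± 0.11), with untreated cells at 9.26 and 9.35. Zc3h12a, a ribonuclease that degrades cytokine mRNAs, stood at 1.25 ± 0.09 and Irak3, an inhibitor of Toll-like receptor signalling, at 0.76 ± 0.08. The MAP kinase phosphatase gene Dusp2 (-0.19 ± 0.11) and the IL-1 decoy receptor gene Il1r2 (0.27 ± 0.14) did not pass. Ppp1r15a, a stress-induced phosphatase subunit, was lower (-1.09 ± 0.10).

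Several costimulatory ligand genes were lower, and some MHC class II genes were slightly higher. Of 16 measured genes of MHC class II, costimulation and checkpoint ligands, 7 were lower (43.8%, against 7.62% of all genes). Another 5 were higher (31.2%, against 12.1%, median -0.15). Cd80, a ligand of CD28 and CTLA-4, read 7.4 and 7.5 in the LPS/IL-4/IL-13 arrays, against 9.9 and 10.02 in the IFN-gamma/LPS arrays (-2.51 ± 0.10), below the untreated level of 7.95 and 8.1 in the combined treatment. Cd86, its partner, read 11.12 and 10.96 in the LPS/IL-4/IL-13 arrays, against 11.94 and 11.84 in the IFN-gamma/LPS arrays (-0.85 ± 0.10), Icosl stood at -1.66 ± 0.10 and Cd40 at -0.42 ± 0.07. H2-Eb1 (0.49 ± 0.08) and H2-Ab1 (0.42 ± 0.09) of MHC class II were higher although Ciita was lower; H2-Ab1 did not pass without IFN-gamma/LPS replicate 1 (limma adjusted p = 0.0689). Cd274, which encodes PD-L1, did not pass (0.05 ± 0.08), unlike Pdcd1lg2. Of the 12 MHC class I processing genes, 3 were lower (25%, against 7.62% of all genes) and 1 higher (8.33%, against 12.1%, median -0.13). Those lower were the peptide transporter gene Tap1 (-0.51 ± 0.07), the regulator Nlrc5 (-0.50 ± 0.10) and the immunoproteasome gene Psmb9 (-0.35 ± 0.08), while Psmb10, another immunoproteasome subunit, was higher (0.81 ± 0.08).

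Growth and trophic factors went both ways, with 8 of 26 higher (30.8%, against 12.1% of all genes) and 5 lower (19.2%, against 7.62%). The list median was 0.11. Beside Hbegf, Pdgfa, a mitogen of oligodendrocyte precursors and fibroblasts, read 10.02 and 9.87 in the LPS/IL-4/IL-13 arrays, against 8.65 and 8.4 in the IFN-gamma/LPS arrays (1.42 ± 0.10), and its untreated level was 8.64 and 8.6. The neuregulin gene Nrg1, a ligand of ErbB receptors, read 9.06 and 9.07 in the LPS/IL-4/IL-13 arrays, against 7.69 and 7.69 in the IFN-gamma/LPS arrays (1.38 ± 0.12). Both LPS treatments were above the untreated Nrg1 level of 5.74 and 5.43. Edn1 (endothelin) stood at 1.15 ± 0.09, Osm (oncostatin M) at 0.91 ± 0.09 and Pdgfb at 0.86 ± 0.10. Bmp2, a bone morphogenetic protein, read 6.86 and 6.77 in the LPS/IL-4/IL-13 arrays, against 9.04 and 9.21 in the IFN-gamma/LPS arrays (-2.31 ± 0.10), with 9.44 and 9.24 with IL-4/IL-13 and 8.76 and 8.66 in untreated cells, so the combined treatment was below all other groups. Csf1, the macrophage growth factor M-CSF, read 9.33 and 9.27 in the LPS/IL-4/IL-13 arrays, against 11.1 and 11.09 in the IFN-gamma/LPS arrays (-1.80 ± 0.09). The angiogenic factor Vegfa stood at -0.94 ± 0.13, and the activin subunit Inhba did not pass (-0.24 ± 0.11), in contrast to its inhibitor Fst.

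Matrix proteases, coagulation factors and their inhibitors were higher in 11 of 25 (44%, against 12.1% of all genes). They were lower in 1 (4%, against 7.62%, median 0.29). Mmp14, a membrane-bound protease that activates other matrix proteases, read 11.19 and 11.16 in the LPS/IL-4/IL-13 arrays, against 9.41 and 9.39 in the IFN-gamma/LPS arrays (1.78 ± 0.10). Adam8 stood at 1.27 ± 0.07, Mmp19 at 1.10 ± 0.09 and the protease inhibitor Timp1 at 1.05 ± 0.11. F3, the tissue factor that starts coagulation, was the lower gene, at 7.8 and 8.05 in the LPS/IL-4/IL-13 arrays, against 9.68 and 9.76 in the IFN-gamma/LPS arrays (-1.80 ± 0.13). Its direction was opposite to that of the thrombin receptor gene F2r.

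Chemoattractant and purine receptors split evenly, 7 higher and 7 lower of 17. These were 41.2% each, against 12.1% of all genes higher and 7.62% lower (median -0.03). Ccr3, an eotaxin receptor, read 9.91 and 10.02 in the LPS/IL-4/IL-13 arrays, against 8.55 and 8.23 in the IFN-gamma/LPS arrays (1.58 ± 0.13), Ccr1 stood at 1.32 ± 0.15 and Cxcr2, a receptor of neutrophil chemokines, at 1.01 ± 0.15. Cxcr2 read 4.85 and 4.92 in the LPS/IL-4/IL-13 arrays, against 4 and 3.76 in the IFN-gamma/LPS arrays, all below the array medians. Ccr7, which guides cells to lymph nodes, read 6.78 and 6.94 in the LPS/IL-4/IL-13 arrays, against 9.08 and 9.12 in the IFN-gamma/LPS arrays (-2.24 ± 0.13). The nucleotide receptors went in opposite directions: P2ry13 and P2ry12, which bind ADP, stood at -2.78 ± 0.09 and -1.84 ± 0.12 and P2ry14 at -0.99 ± 0.10, whereas P2ry6, which binds UDP, stood at 1.29 ± 0.06 and P2rx4 at 0.46 ± 0.06. Of 30 phagocytosis, scavenger, Fc and lectin receptor genes 13 were higher (43.3%, against 12.1% of all genes) and 8 lower (26.7%, against 7.62%). Their median was 0.14. Fcgr2b, the inhibitory Fc receptor, read 12.74 and 12.71 in the LPS/IL-4/IL-13 arrays, against 11.16 and 11.14 in the IFN-gamma/LPS arrays (1.58 ± 0.06). Mertk, which binds apoptotic cells, read 10.04 and 9.97 in the LPS/IL-4/IL-13 arrays, against 11.26 and 11.4 in the IFN-gamma/LPS arrays (-1.33 ± 0.08), and Timd4, which also does, stood at -1.02 ± 0.11.

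Prostaglandin and leukotriene genes passed in both directions. Ptges, the inducible prostaglandin E synthase, read 11.09 and 11.16 in the LPS/IL-4/IL-13 arrays, against 9.69 and 9.31 in the IFN-gamma/LPS arrays (1.63 ± 0.14), and the phospholipase gene Pla2g4a, which releases arachidonic acid, stood at 1.09 ± 0.12. The receptors for these lipids differed in direction, with the prostacyclin receptor Ptgir at 1.49 ± 0.11 and the prostaglandin E receptor Ptger2 at 1.23 ± 0.12, against Ptger4 at -1.64 ± 0.09. Over the list, 7 of 21 prostaglandin and leukotriene genes were higher (33.3%, against 12.1% of all genes) and 3 lower (14.3%, against 7.62%). The list median was 0.07. Among 23 cell death and inflammasome genes 5 were higher (21.7%, against 12.1% of all genes) and 7 lower (30.4%, against 7.62%, median -0.07). The pro-apoptotic genes Pmaip1 (NOXA, -1.90 ± 0.12) and Bcl2l11 (BIM, -1.40 ± 0.09), the death ligand gene Tnfsf10 (-1.02 ± 0.10) and the death receptor gene Fas (-0.93 ± 0.10) were lower, as was the inflammasome adaptor gene Pycard (-0.91 ± 0.08). The inflammasome genes Mefv (0.87 ± 0.13), which encodes pyrin, and Naip5, a flagellin sensor (0.80 ± 0.11), were higher. Nlrc4, which acts with Naip5, was also higher (0.74 ± 0.20), at 6.37 and 5.66 with LPS/IL-4/IL-13 and 5.45 and 5.11 with IFN-gamma/LPS, but did not pass without LPS/IL-4/IL-13 replicate 1 (limma adjusted p = 0.169) or IFN-gamma/LPS replicate 2 (limma adjusted p = 0.126). Of the anti-apoptotic genes, Bcl2l1 was higher (0.51 ± 0.09) and Bcl2 lower (-0.40 ± 0.10), the call of Bcl2 being lost without LPS/IL-4/IL-13 replicate 1 (limma adjusted p = 0.0707) or IFN-gamma/LPS replicate 2 (limma adjusted p = 0.12). Casp1 (0.22 ± 0.11) and Gsdmd (0.27 ± 0.10), which carry out pyroptosis, did not pass.

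Several glycolysis genes were lower and several genes of fatty acid handling and the TCA cycle higher. In the glycolysis and hypoxia list 11 of 24 were lower (45.8%, against 7.62% of all genes) and 2 higher (8.33%, against 12.1%, median -0.22). Pfkp, a phosphofructokinase, read 10.63 and 10.59 in the LPS/IL-4/IL-13 arrays, against 11.63 and 11.64 in the IFN-gamma/LPS arrays (-1.03 ± 0.07), the hexokinase gene Hk2 read 8.13 and 7.92 in the LPS/IL-4/IL-13 arrays, against 8.97 and 9.09 in the IFN-gamma/LPS arrays (-1.01 ± 0.15), and Hif1a, the hypoxia-inducible factor, stood at -0.85 ± 0.09. Pfkfb3, which makes the activator of phosphofructokinase, was higher (0.82 ± 0.10), and Pgk1, a phosphoglycerate kinase, did not pass (-0.20 ± 0.10). Of 22 fatty acid oxidation and TCA cycle genes, 9 were higher (40.9%, against 12.1% of all genes) and 2 lower (9.09%, against 7.62%). The list median was 0.18. Fh1, the fumarase, read 8.7 and 8.47 in the LPS/IL-4/IL-13 arrays, against 6.82 and 6.77 in the IFN-gamma/LPS arrays (1.79 ± 0.10), with untreated cells at 8.96 and 8.86. Fabp4, a fatty acid-binding protein gene, stood at 1.57 ± 0.11, and the acyl-CoA dehydrogenase gene Acadm at 0.99 ± 0.13. Acadm read 8.46 and 8.04 with LPS/IL-4/IL-13 and 7.29 and 7.23 with IFN-gamma/LPS, both below the untreated 9.96 and 9.8. Fabp4 was above its untreated level of 6.59 and 6.47 in the combined treatment (8.31 and 8.16). The summed linear signal of the list was 15369 and 13863, against 11113 and 11845 with IFN-gamma/LPS. Untreated cells had 20258 and 19530, more than either treatment.

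In the sterol synthesis list 8 of 16 genes were higher (50%, against 12.1% of all genes) and 1 lower (6.25%, against 7.62%, median 0.36). Those higher included Msmo1 (0.98 ± 0.12), Fdft1, the squalene synthase (0.88 ± 0.11), and the regulator Srebf2 (0.82 ± 0.09). Fdft1 read 7.45 and 7.47 with LPS/IL-4/IL-13 and 6.56 and 6.6 with IFN-gamma/LPS, both below the untreated 7.7 and 7.81. The summed linear signal of the list was 2911 and 2832, against 2603 and 2631 with IFN-gamma/LPS. Untreated cells had 3741 and 3560, more than either treatment. The lower gene was Insig1, which restrains that regulator (-1.04 ± 0.08). Cholesterol transport genes differed in direction. Abca1, the cholesterol efflux transporter, read 9.84 and 9.71 in the LPS/IL-4/IL-13 arrays, against 7.91 and 7.95 in the IFN-gamma/LPS arrays (1.85 ± 0.08), and untreated cells had 11.32 and 11.3. Npc1, the lysosomal cholesterol transporter, stood at 1.33 ± 0.07. Mylip, an LXR-induced ubiquitin ligase that degrades the LDL receptor, read 8.5 and 8.38 in the LPS/IL-4/IL-13 arrays, against 10.41 and 10.39 in the IFN-gamma/LPS arrays (-1.96 ± 0.08), and Abcg1, another efflux transporter, was lower (-0.72 ± 0.08). The LXR and cholesterol efflux list as counted had 3 of 14 higher (21.4%, against 12.1% of all genes) and 3 lower (21.4%, against 7.62%). Its median was 0.11.

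Of 24 cell cycle genes, 5 were higher (20.8%, against 12.1% of all genes), 3 were lower (12.5%, against 7.62%) and 16 did not pass (median 0.16). The shares of all genes are not matched for the brightness of the list. The mitotic kinase gene Plk1 (0.77 ± 0.15), the cyclin gene Ccna2 (0.73 ± 0.14) and the replication gene Mcm6 (0.73 ± 0.11) were higher, and the cyclin gene Ccnd2 was lower (-1.11 ± 0.09). Ccna2 read 6.71 and 6.39 in the LPS/IL-4/IL-13 arrays, against 5.9 and 5.74 in the IFN-gamma/LPS arrays, the latter below the array medians. Both treatments were below the untreated Ccna2 level of 8.8 and 8.97. For Ccnd2 both treatments (11.27 and 11.18, and 12.32 and 12.34) were above the untreated 7.56 and 7.4. Of 16 macrophage identity genes, 8 were higher (50%, against 12.1% of all genes) and 2 lower (12.5%, against 7.62%). The differences were small (median 0.13). Tlr4, the LPS receptor itself, was the exception, at 10.45 and 10.16 in the LPS/IL-4/IL-13 arrays, against 8.8 and 8.68 in the IFN-gamma/LPS arrays (1.57 ± 0.10), and its co-receptor gene Cd14 stood at 0.60 ± 0.08. Untreated cells had Tlr4 at 9.6 and 9.67, between both. Cebpb, an inflammatory transcription factor, was higher (0.76 ± 0.10) and Irf8 lower (-0.73 ± 0.06). Spi1, the lineage factor PU.1, did not pass (-0.10 ± 0.06).

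**Figure D4:**
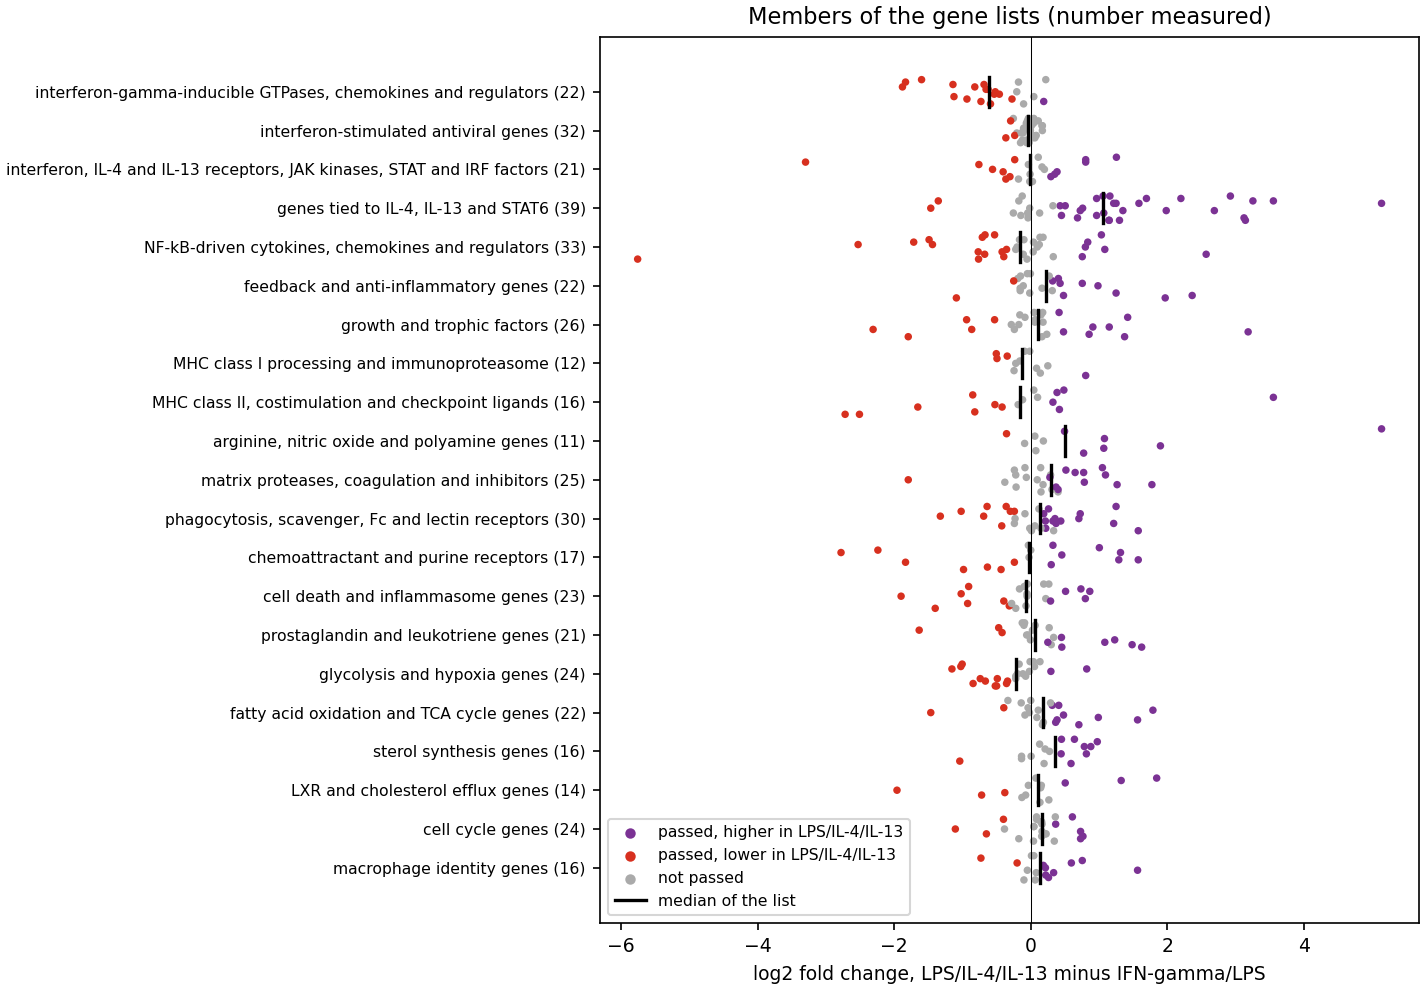
Log2 fold change of LPS/IL-4/IL-13 minus IFN-gamma/LPS (x axis) for each measured member of 21 gene lists (rows, number measured in brackets); points are genes, coloured by call, and black bars are list medians. The list medians run from -0.61 for interferon-gamma-inducible genes to 1.06 for the STAT6-linked list.

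Markers of other cell types were counted beside the 12.1% of all genes called higher and the 7.62% called lower. Of 10 dendritic cell markers 4 were lower (40%) and 1 higher (10%). Ccr7 and the cross-presenting dendritic cell receptor gene Xcr1 (-1.98 ± 0.14) led the decrease, and 5 of the 10 lay below the array median in all 8 arrays. The summed linear signal of that list was 1046 and 1137 with LPS/IL-4/IL-13, against 1956 and 2103 with IFN-gamma/LPS (574 and 627 with IL-4/IL-13, 542 and 553 untreated). Among 14 neutrophil markers 5 were higher (35.7%) and 0 lower, and 7 lay below the array median everywhere. That sum was 4973 and 5269 with LPS/IL-4/IL-13, against 2471 and 2414 with IFN-gamma/LPS (3334 and 3375 with IL-4/IL-13, 2191 and 2110 untreated), and Csf3r, the G-CSF receptor, which read 11.94 and 12.02 in the LPS/IL-4/IL-13 arrays, against 10.5 and 10.45 in the IFN-gamma/LPS arrays (1.51 ± 0.08), supplied most of it. Ly6g, a defining neutrophil marker, did not pass (-0.31 ± 0.15) and read 5.18 and 5.44 with LPS/IL-4/IL-13 and 5.76 and 5.47 with IFN-gamma/LPS, below the array medians. Of 9 mast cell and basophil markers 1 was higher (11.1%), the histidine decarboxylase gene Hdc (0.86 ± 0.13), 7 lay below the array median everywhere, and the summed signal was 1720 and 1670 with LPS/IL-4/IL-13, against 1012 and 1185 with IFN-gamma/LPS (456 and 458 with IL-4/IL-13, 362 and 367 untreated). Fibroblast markers had 1 of 12 higher (Dcn, 0.38 ± 0.11) and 1 lower (Pdgfrb, -0.46 ± 0.14), with summed signals of 3098 and 3176 with LPS/IL-4/IL-13, against 2965 and 3101 with IFN-gamma/LPS. Of 7 B lymphocyte markers 2 (28.6%) were higher (Cd79b, 1.31 ± 0.12, and Ebf1, 0.33 ± 0.11), and of 9 T and NK cell markers and 4 erythroid markers 0 passed in limma, and 6 of the 9 and 3 of the 4 lay below the array median in all arrays. The summed signal was 519 and 556 with LPS/IL-4/IL-13, against 351 and 342 with IFN-gamma/LPS for the B lymphocyte list, 443 and 456 with LPS/IL-4/IL-13, against 466 and 481 with IFN-gamma/LPS for the T and NK cell list and 193 and 212 with LPS/IL-4/IL-13, against 211 and 206 with IFN-gamma/LPS for the erythroid list. Of the 7 B lymphocyte markers, 6 lay below the array median in all 8 arrays. Cd79b read 8.16 and 8.35 in the LPS/IL-4/IL-13 arrays, against 7.09 and 6.8 in the IFN-gamma/LPS arrays. Its untreated level was 8.1 and 8.03, close to the combined treatment. Dcn, Pdgfrb and Ebf1 each lost their call in fits that left out 1 array. The part of such cells in the differences above was not tested.

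The levels in the other 4 arrays show where the difference lay. Among the 334 genes at least 2-fold higher, untreated cells were nearer to LPS/IL-4/IL-13 in 161 (48.2%) and nearer to IFN-gamma/LPS in 173 (51.8%). Il6ra was among the former and Il19 among the latter, but this nearness does not sort all increases into separate kinds. The LPS/IL-4/IL-13 arrays were above all 6 other arrays in 191 of the 334 genes. The IFN-gamma/LPS arrays were below all 6 others in 187, and a gene can count in both. Among the 327 genes at least 2-fold lower, untreated cells were nearer to LPS/IL-4/IL-13 in 250 (76.5%). The IFN-gamma/LPS arrays were above all 6 other arrays in 284 of these 327 genes, and the LPS/IL-4/IL-13 arrays were below all 6 others in 86. These are descriptions of levels, chosen after the values were seen, with no test.

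The macrophages given IL-4/IL-13 without LPS and the untreated ones share no array with the comparison, so their difference comes from separate readings. Their calls are not separate, because the model of all 8 arrays gave each gene the same spread estimate for both comparisons. A gene with a small spread is more readily called in both. The part of this shared spread in the shares of calls below was not tested. Of all genes, 7.83% were higher and 12.3% lower with IL-4/IL-13 than in untreated cells. Among the 334 genes at least 2-fold higher in LPS/IL-4/IL-13 than in IFN-gamma/LPS, 152 (45.5%) were higher with IL-4/IL-13 alone and 67 (20.1%) lower. Pdcd1lg2, Tmem26, Flt1, Arg1 and Rasgrp1 are among those higher, with log2 fold changes of IL-4/IL-13 minus untreated of 5.22 ± 0.11, 3.78 ± 0.11, 3.54 ± 0.12, 3.45 ± 0.12 and 5.90 ± 0.12. Il6ra (0.02) and Il19 (0.25) did not pass in that comparison. Among the 327 genes at least 2-fold lower, 113 (34.6%) were lower with IL-4/IL-13 alone and 41 (12.5%) higher, Dnase1l3 being one of the higher ones (2.04). Of the 2407 genes called higher at any size, 20.9% were higher and 19.7% lower with IL-4/IL-13 alone, and of the 1519 called lower, 34.8% were lower and 10.1% higher. Called genes were brighter than all genes (median level 8.5 and 8.32, against 6.34), and the part of brightness in these shares was not tested. The share of 34.8% was 22.2% without untreated replicate 1. Across all 19938 genes the 2 differences correlated at r = 0.138, and across the 661 genes that differed at least 2-fold at r = 0.342, as a description over genes measured by the same probe sets.

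**Figure D5:**
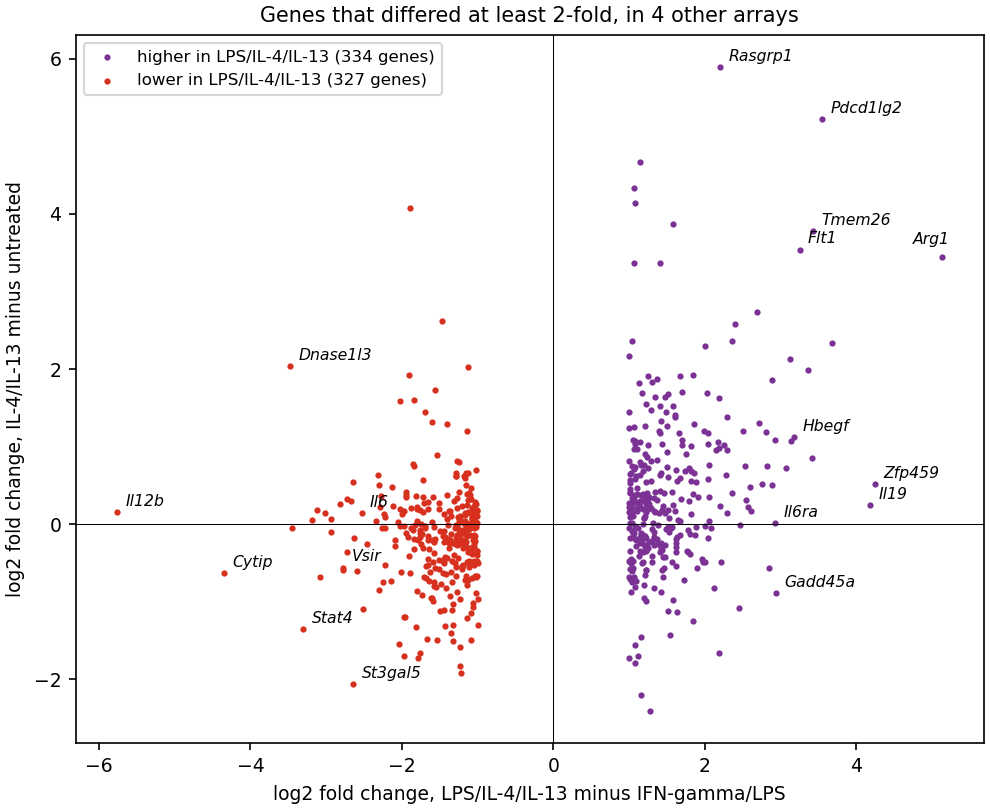
Log2 fold change of IL-4/IL-13 minus untreated (y axis) against that of LPS/IL-4/IL-13 minus IFN-gamma/LPS (x axis) for the 334 genes at least 2-fold higher (purple) and the 327 at least 2-fold lower (red), with 1 point per gene. The axes share no array. Rasgrp1 and Pdcd1lg2 stand highest on the y axis, and Il12b and Il19 lie near 0 on it.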

How the data were processed

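Total RNA was hybridised to Affymetrix MoGene 1.0 ST arrays, 1 sample per array, per the labels. The authors deposited log2 signals, 1 for each probe set on each array; that scale was read from the values, while the labels name a MAS5 signal, and the method of background correction and normalization is not given in the sources used here. No detection calls were used, and the number of arrays limits the precision. Platform annotation gave 21789 of 35556 probe sets 1 symbol, 1621 several and 12146 none, and 999 genes had more than 1 probe set. Groups came from the treatment labels. A limma 3.58.1 model (R 4.3.3) over the 4 groups (lmFit, then eBayes with a mean-variance trend, 4 residual and 7.55 prior degrees of freedom) was adjusted by Benjamini-Hochberg over all genes; the script was tested on simulated data. Alternatives were other normalizations, filters, variance models, probe set rules, a replicate block, a fold minimum and leaving out each array.

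The text names the 20 largest called changes in each direction with groups that did not overlap (predicted genes and small RNAs left out), 17 activation markers, and per gene list up to 6 called members per direction and 3 that did not pass. Adgre1, Cd274, Cxcl2, Egr2, Ifit2, Il23a, Irf4, Mx1, Ptgs2, Rasgrp1, Stat6 and the genes of the last section on other observations fall outside that rule and were chosen after their values were seen. The 28 lists held 563 genes, of which 501 were measured. Members and lists were chosen with earlier results of these data known. Promoter sequences are from RefSeq (GRCm38.p6).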

Additional observations from a re-analysis of the deposited data

Results flagged for a closer look

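Probe sets outside the named genes also differed between the treatments. In a separate limma fit of all 35556 probe sets, 101 of the 1621 probe sets that carry several gene symbols passed at an adjusted p under 0.05 (52 higher and 49 lower with LPS/IL-4/IL-13 than with IFN-gamma/LPS). The largest increase among them was probe set 10495107, which read 9.70 and 9.87 with LPS/IL-4/IL-13 and 7.32 and 7.28 with IFN-gamma/LPS (log2 fold change 2.48 ± 0.10). Of the 12146 probe sets with no symbol, 1041 passed (481 higher and 560 lower), 73 of them at least 2-fold higher and 236 at least 2-fold lower. In the same fit, 1887 of the 21789 probe sets with a single symbol were higher and 1281 lower. Of these, 367 were at least 2-fold higher and 349 at least 2-fold lower. Calls were thus rarer among probe sets with several symbols or none. Only decreases of at least 2-fold were more frequent, among probe sets with no symbol. Probe set 10345762 read 9.03 and 8.12 with LPS/IL-4/IL-13 and 5.48 and 5.45 with IFN-gamma/LPS (3.11 ± 0.26), and probe set 10342996 read 4.02 and 3.13 with LPS/IL-4/IL-13, against 6.35 and 6.25 with IFN-gamma/LPS (-2.73 ± 0.27). In both the LPS/IL-4/IL-13 arrays differed by more than the IFN-gamma/LPS arrays. No gene is named for these probe sets here.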

How the results depend on the processing

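The 2407 higher and 1519 lower genes stayed within 1.5 times these counts under quantile normalization, median centring, the filter on dim genes, no variance trend and the mean over probe sets. Exceptions were the model of these 4 arrays alone, with 1488 higher genes and 31.7% of them higher with IL-4/IL-13 alone, and a minimum of 2-fold, with 334 higher and 327 lower genes and a share of 45.5%. Leaving out 1 array gave 1558 to 2884 higher and 1183 to 1516 lower genes, 15.3% to 27.6% of higher genes higher with IL-4/IL-13 alone and 22.2% to 42% of lower genes lower with it; where 1 array of a group remains, it is assumed to vary like the other groups. No result reversed. The replicate numbers give no stated pairing. Deviations of same-numbered LPS/IL-4/IL-13 and IFN-gamma/LPS arrays correlated at -0.358, and the replicate block gave 2337 higher and 1496 lower genes with shares of 20.8% and 34.6%. With the IFN-gamma/LPS numbers crossed, an alternative chosen after seeing the data, the counts were 2736 and 1668. With 2 arrays per group and no detection calls, signal over background was not assessed for dim genes.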

Other observations

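Further genes with differences of at least 4-fold were picked by eye after the values were seen, from outside the lists above. Pgf, the placental growth factor that binds the receptor encoded by Flt1, read 8.05 and 8.06 in the LPS/IL-4/IL-13 arrays, against 5.93 and 5.67 in the IFN-gamma/LPS arrays (2.26 ± 0.16). The caveolin gene Cav1 read 9.64 and 9.6 in the LPS/IL-4/IL-13 arrays, against 7.41 and 7.26 in the IFN-gamma/LPS arrays (2.29 ± 0.11), and Itgb8, an integrin subunit that takes part in activating TGF-beta, read 10.85 and 10.58 in the LPS/IL-4/IL-13 arrays, against 8.38 and 8.45 in the IFN-gamma/LPS arrays (2.30 ± 0.12). Id1, an inhibitor of helix-loop-helix transcription factors, was high in the combined treatment alone, at 8.9 and 8.7 in the LPS/IL-4/IL-13 arrays, against 6.26 and 6.25 in the IFN-gamma/LPS arrays, beside 6.33 and 6.43 with IL-4/IL-13 and 6.07 and 6.07 in untreated cells. Aqp9, a water and glycerol channel gene, stood at 2.61 ± 0.11 and the ETS factor gene Etv5 at 2.72 ± 0.10. Zfp36l1, a factor that promotes mRNA decay, stood at 2.76 ± 0.09, with its IFN-gamma/LPS arrays (8.56 and 8.54) below the untreated level of 11.26 and 11.22.

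In the other direction, Vdr, the vitamin D receptor, read 6.74 and 6.75 in the LPS/IL-4/IL-13 arrays, against 9.13 and 8.91 in the IFN-gamma/LPS arrays (-2.28 ± 0.11). Kdr, the second receptor of vascular endothelial growth factor, read 7.6 and 7.3 in the LPS/IL-4/IL-13 arrays, against 9.45 and 9.5 in the IFN-gamma/LPS arrays (-2.03 ± 0.14), opposite in direction to Flt1. Klrk1, which encodes the activating receptor NKG2D, read 6.14 and 5.97 in the LPS/IL-4/IL-13 arrays, against 8.16 and 8.39 in the IFN-gamma/LPS arrays (-2.22 ± 0.15), and Il18rap, a subunit of the IL-18 receptor, stood at -2.26 ± 0.13. Kitl, the stem cell factor, stood at -2.25 ± 0.10, the granzyme inhibitor gene Serpinb9 at -2.46 ± 0.15 and the TNF family ligand gene Tnfsf18 at -2.12 ± 0.15.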
